A study of Mus musculus with 9 samples.

Results

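The transcripts of 6 cyclin-dependent kinase inhibitor genes, Cdkn1b, Cdkn1c, Cdkn2a, Cdkn2b, Cdkn2c and Cdkn2d, were followed in mouse embryonic fibroblasts (MEFs) that lacked different pairs of the lysine methyltransferases (KMTs) acting on histone H3 lysine 9. The genes were chosen by symbol. Each of the 6 matched 1 of the 47937 rows of the gene table, and all 6 passed the filter on low counts that left 15540 genes for testing. Total RNA had been sequenced from 3 libraries for each of 3 genotypes. WT cells were the parental Eset1-conditional line, a clone sorted for high Cre activity whose Eset1 allele can be deleted with tamoxifen. S1S2 cells lacked Suv39h1 and Suv39h2, and G9Gl cells lacked G9a and Glp, which are the products of Ehmt2 and Ehmt1. By the study's account both mutants derive from the conditional line, so all 3 genotypes share this Eset1 allele. The sample titles name no tamoxifen treatment. By the methods, an inducible Cre construct was put in again after CRISPR/Cas9 disruption, and the lines were then kept under puromycin. Whether this sets the mutant libraries apart from WT is not given in the titles. Each mutant was a clone made with CRISPR/Cas9 and chosen because the target proteins were absent on western blots, so genotype and clone cannot be told apart here. The study describes 3 biological replicates for each cell line. The labels do not say whether the 3 libraries of a genotype came from separate cultures, and p-values then measure only the spread between these libraries.

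Cyclin-dependent kinase inhibitors hold back the kinases that drive cells from G1 into DNA synthesis. The INK4 proteins p16Ink4a (Cdkn2a), p15Ink4b (Cdkn2b), p18Ink4c (Cdkn2c) and p19Ink4d (Cdkn2d) bind CDK4 and CDK6 and keep them from D cyclins. The CIP/KIP proteins p27Kip1 (Cdkn1b) and p57Kip2 (Cdkn1c) bind complexes of cyclins with their kinases, CDK2 among them. Cdkn2a also encodes p19Arf, which binds MDM2 and so stabilizes p53. Products of the Cdkn2a and Cdkn2b locus are well known for accumulating in MEFs during culture and for arresting them, and established lines often carry a defect somewhere in this pathway.

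The libraries held 21319778 to 32157623 gene counts, and the S1S2 libraries, at 21319778 to 27588548, lay below those of both other genotypes. Levels are given as CPM, the counts of a gene relative to the library total after TMM scaling, with mean ± SD over 3 libraries. Of the targeted genes, Suv39h1 was at 41.9 CPM in S1S2 against 108.0 CPM in WT, Ehmt1 was at 50.2 CPM in G9Gl against 103.5 CPM, and Ehmt2 was at 54.3 CPM against 125.0 CPM, all called lower. Suv39h2 was instead at 55.2 CPM in S1S2 against 33.9 CPM, so that its transcript level gives no check of the label. Of 11 fibroblast markers, 10 were detected above 3 counts in at least 1 library of every genotype, whereas Lum stayed at or under 3 counts. Summed over the list, they reached 9869 to 11370 CPM in WT, 7405 to 7472 CPM in S1S2 and 7799 to 8659 CPM in G9Gl. Mean levels of single markers differed in direction. Between WT and S1S2, mean levels were 2395 and 395.3 CPM for Col1a2, 1527 and 190.1 CPM for Col3a1, and 1458 and 2399 CPM for Vim. Between WT and G9Gl they were 4.99 and 38.3 CPM for Thy1, and 7.22 and 0.198 CPM for Dcn. Summed epithelial markers lay at 0.198 to 0.400 CPM in WT, 0.376 to 0.965 CPM in S1S2 and 4.25 to 5.32 CPM in G9Gl, where Krt14 made up most of the sum, at 4.39 CPM. Summed endothelial markers lay at 0.123 to 0.193 CPM in WT, 1.55 to 1.70 CPM in S1S2, with Kdr at 1.22 CPM, and 0.790 to 2.35 CPM in G9Gl, with Cdh5 at 1.01 CPM. Krt5, Cldn3, Emcn and the T cell marker Cd3e had no count in any library. Fewer cells of a type and less RNA per cell cannot be told apart in such bulk samples, and the part of these marker shifts in the results was not tested.

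Cdkn2a is unusual in that its 2 annotated transcripts start from separate first exons and share exon 2, which is read in different frames, so that the proteins are unrelated. The sequences are shown because the deposited count adds both transcripts up, and the results for this gene turn on that. All are from the GENCODE M21 transcripts on GRCm38, minus strand, written 5′ to 3′. For the coding starts, at chr4:89282052-89282111 for p16Ink4a (transcript Cdkn2a-201) and chr4:89294464-89294523 for p19Arf (Cdkn2a-202), the start codon is in capitals. For the junctions, the last 30 bases of exon 1 are in lower case, and the first 30 bases of the shared exon 2 are in capitals.
p16Ink4a coding start: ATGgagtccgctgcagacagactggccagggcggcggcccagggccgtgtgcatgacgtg
p16Ink4a exon 1 to exon 2: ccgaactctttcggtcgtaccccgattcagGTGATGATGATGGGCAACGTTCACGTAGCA
p19Arf coding start: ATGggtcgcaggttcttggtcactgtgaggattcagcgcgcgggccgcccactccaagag
p19Arf exon 1 to exon 2: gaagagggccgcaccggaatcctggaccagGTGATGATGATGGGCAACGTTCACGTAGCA
Exon 1 holds 126 coding bases in the p16Ink4a transcript, a whole number of codons, and 190 in the p19Arf transcript, which leaves a remainder of 1 base, so the same capitals are read in another frame. Of the exon bases of the gene, 575 (49.1%) belong to both transcripts, 277 only to Cdkn2a-201 and 320 only to Cdkn2a-202. A change in the Cdkn2a count therefore does not say which product changed.

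Cdkn2b lies 11.7 kb from Cdkn2a on the same strand. The promoters of this shared locus are printed because the genes in it are compared side by side in what follows. They are RefSeq windows on GRCm38.p6, minus strand, of 250 bases before and 50 after each start, with the GC box GGGCGG, searched on both strands, in capitals. The start used for p19Arf is at chr4:89294570-89294869, that for p16Ink4a at chr4:89282143-89282442 and that of Cdkn2b at chr4:89310983-89311282.
p19Arf promoter: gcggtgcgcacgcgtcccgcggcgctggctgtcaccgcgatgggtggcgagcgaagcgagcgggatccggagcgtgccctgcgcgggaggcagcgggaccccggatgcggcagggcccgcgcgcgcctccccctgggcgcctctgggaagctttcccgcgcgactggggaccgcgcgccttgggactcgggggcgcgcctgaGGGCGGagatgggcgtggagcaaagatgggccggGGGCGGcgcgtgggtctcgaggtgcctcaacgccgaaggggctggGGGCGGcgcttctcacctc
p16Ink4a promoter: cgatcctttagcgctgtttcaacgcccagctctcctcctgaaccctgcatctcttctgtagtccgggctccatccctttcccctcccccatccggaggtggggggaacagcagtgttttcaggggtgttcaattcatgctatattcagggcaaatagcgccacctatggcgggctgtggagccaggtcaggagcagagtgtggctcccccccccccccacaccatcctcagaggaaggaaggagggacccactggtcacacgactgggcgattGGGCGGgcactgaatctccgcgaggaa
Cdkn2b promoter: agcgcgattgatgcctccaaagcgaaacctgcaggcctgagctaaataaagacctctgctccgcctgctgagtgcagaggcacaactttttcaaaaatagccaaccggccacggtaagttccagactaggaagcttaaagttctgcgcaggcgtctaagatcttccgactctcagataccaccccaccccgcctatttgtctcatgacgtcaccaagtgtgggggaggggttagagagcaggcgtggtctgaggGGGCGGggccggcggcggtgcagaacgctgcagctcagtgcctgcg
The p19Arf window holds 3 GC boxes and 45 CpG dinucleotides, more CpG than 98.1% of the 32851 promoters of the table. The p16Ink4a window holds 1 box and 12 CpG, and the Cdkn2b window 1 box and 18 CpG. The box occurs in 35.7% of all promoters, whose median is 7 CpG, so a single match is common. A window was given for 5 of the 6 genes. Those of Cdkn1b with 1 box, Cdkn2d with 5 and Cdkn2c with 4 and 0 boxes at its 2 starts are not printed.

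Per length of exon, the 6 genes differed by more than an order of magnitude in WT cells, with Cdkn2a far above the rest. Its WT level was 271.4 ± 18.4 CPM per kb (SD, n = 3), higher than 98.7% of tested genes. Next came Cdkn2b at 41.3 ± 1.20, Cdkn2c at 20.6 ± 1.46, Cdkn1b at 13.4 ± 0.237, Cdkn1c at 10.3 ± 0.440 and Cdkn2d at 7.30 ± 0.363 CPM per kb, and neighbours in this order were separated by more than their SDs. In S1S2 the order below Cdkn2b was different. Cdkn1c stood at 24.8 ± 0.431, above Cdkn2c at 18.1 ± 0.151, followed by Cdkn2d at 12.4 ± 0.778 and Cdkn1b, now lowest, at 10.3 ± 0.238 CPM per kb. In G9Gl the order was that of WT except that Cdkn1b, at 9.75 ± 0.481, and Cdkn1c, at 9.80 ± 0.343 CPM per kb, did not differ beyond their spread. The plot of level per exon length shows this reordering.

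**Figure D1:**
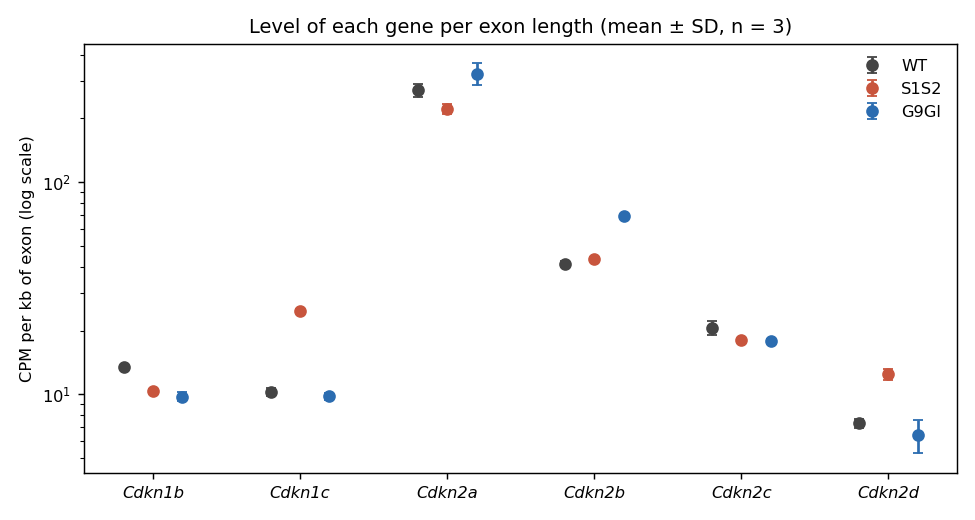
Level of the 6 inhibitor genes in CPM per kb of exon, on a log axis, as mean ± SD of 3 libraries for WT (grey), S1S2 (red) and G9Gl (blue). Cdkn2a sits between 222.5 and 324.5 CPM per kb in all 3 genotypes, and Cdkn1c and Cdkn2d sit higher in S1S2 than in the other 2.

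Summed over the 6 genes, transcript level per length was 364.3 ± 18.6 CPM per kb in WT, 331.5 ± 11.5 in S1S2 and 437.3 ± 40.9 in G9Gl. Cdkn2a supplied 74.5 ± 1.32% of that sum in WT, 67.1 ± 1.33% in S1S2 and 74.1 ± 1.89% in G9Gl, so the sum mostly follows this gene. The summed CIP/KIP members, Cdkn1b and Cdkn1c, stood in another order, with S1S2 highest. They amounted to 23.7 ± 0.678 CPM per kb in WT, 35.1 ± 0.653 in S1S2 and 19.6 ± 0.615 in G9Gl. The share of Cdkn1c in the sum of 6 was 2.82 ± 0.160% in WT, 7.48 ± 0.213% in S1S2 and 2.25 ± 0.195% in G9Gl. These sums were given no test.

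Comparisons used a single edgeR fit over all 9 libraries, and a call needed both a fold change of at least 2 and an adjusted p (Benjamini-Hochberg, over all tested genes) no larger than 0.01. "Rose" and "fell" are used for genes that met the limit on adjusted p, whatever their fold. In S1S2 against WT, 1 of the 6 genes was called, Cdkn1c, against 9% of all tested genes (4.66% called higher and 4.34% called lower). In G9Gl against WT, none was called by edgeR or by DESeq2, against 10.2% of all genes (6.77% higher and 3.4% lower). There 4 of 6 had an unadjusted p under 0.05, as did at least 45.9% of all genes, the share at an adjusted p of 0.05. In G9Gl against S1S2, 1 of 6 was called, again Cdkn1c, and lower, against 13.1% of all genes (7.97% higher and 5.08% lower). Libraries of the groups compared did not overlap for 5, 4 and 5 of the 6 genes, against 56% of all genes in S1S2 against WT, 52.8% in G9Gl against WT and 60.8% between the mutants. By adjusted p alone, 2 members rose and 3 fell in S1S2 against WT, where 20.3% of all genes rose and 17.6% fell (37.9% either way). In G9Gl against WT 2 rose and 2 fell, where 19% and 16% of all genes did (35% either way). Between the mutants 2 were higher and 2 lower in G9Gl, against 21.6% and 21.1% of all genes (42.6% either way). With a limit of 0.05 in place of 0.01, 5, 4 and 4 of the 6 members passed in these comparisons, against 48.9%, 45.9% and 53.3% of all genes. The median absolute log2 fold change of the 6 was 0.33 in S1S2 and 0.23 in G9Gl, beside 0.25 and 0.22 over all genes, and 0.61 between the mutants, beside 0.26. These comparisons share libraries and are not independent of each other.

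**Figure D2:**
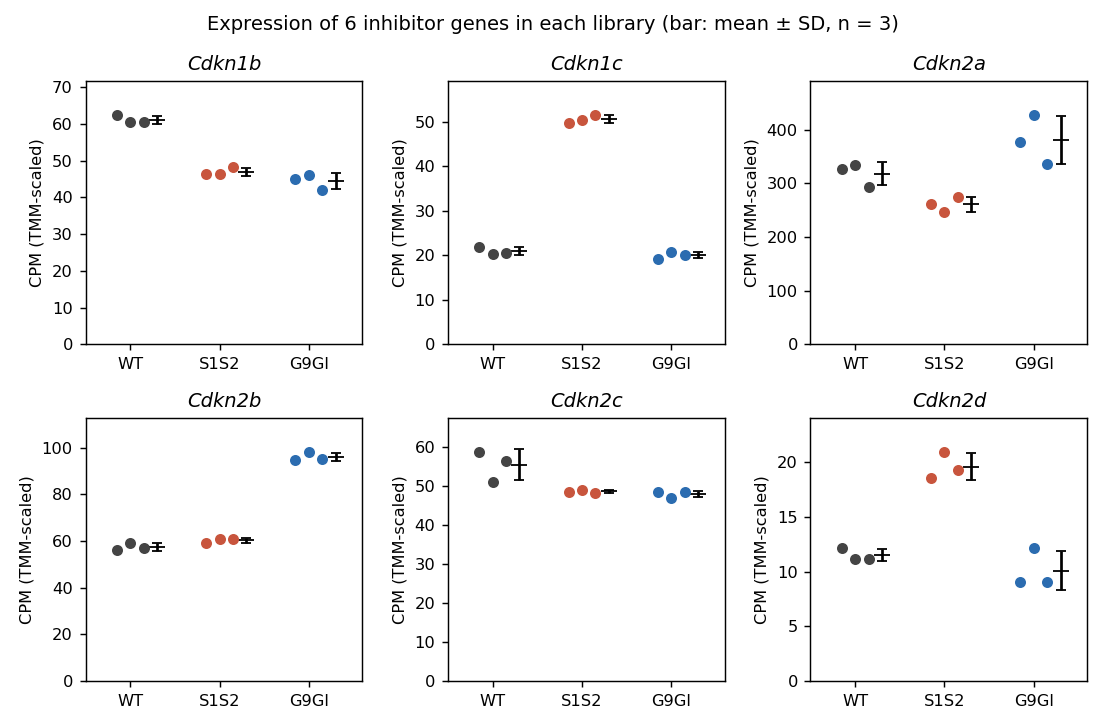
CPM of each of the 6 genes in every library (points, 3 per genotype) with mean ± SD to the right of each group; the axes start at 0 and differ between panels. Cdkn1c and Cdkn2d are high in all 3 S1S2 libraries, Cdkn2b is high in all 3 G9Gl libraries, and Cdkn1b is high in all 3 WT libraries.

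Cdkn1c, which encodes p57Kip2, an inhibitor best known from embryonic growth control and from its imprinting, had the largest change of the 6 genes in S1S2. The WT libraries gave 21.9, 20.3 and 20.5 CPM, the S1S2 libraries 49.7, 50.5 and 51.5 CPM, and the G9Gl libraries 19.2, 20.6 and 20.1 CPM. All 3 S1S2 libraries stood far above the other 6, while WT and G9Gl overlapped. Against WT S1S2 showed a rise of 2.42-fold (1.27 ± 0.038 SE on the log2 scale, adjusted p = 7.83e-12), and 8.45% of tested genes changed by more in either direction. In G9Gl the log2 fold change was -0.07 ± 0.046 (adjusted p = 0.392). The direct comparison put S1S2 2.53-fold above G9Gl (log2 fold change of G9Gl over S1S2 -1.34 ± 0.033, adjusted p = 2.03e-12). An annotated antisense transcript, Gm44732, overlaps Cdkn1c and shares 22.1% of the 75-base sequences of Cdkn1c. Gm44732 held 1 to 7 counts per library, and Cdkn1c held 548 to 1386. The strand setting of the counting is not given, and whether reads of Gm44732 were counted for Cdkn1c was not tested.

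Cdkn1b, which encodes p27Kip1, the inhibitor whose protein is chiefly controlled by SKP2-dependent degradation, fell in both mutants. The gene lies at chr6:134920401-134925513 on the plus strand. Its 3 WT libraries were at 62.4, 60.6 and 60.4 CPM, those of S1S2 at 46.4, 46.5 and 48.3 CPM, and those of G9Gl at 45.1, 46.1 and 41.9 CPM. Every mutant library lay below every WT library. On the log2 scale it fell by 0.38 ± 0.024 in S1S2, to 0.770 of the WT level (adjusted p = 7.95e-06), and by 0.46 ± 0.044 in G9Gl, to 0.726 of that level (adjusted p = 6.06e-07). Between the mutants it was -0.08 ± 0.046, with the G9Gl libraries all below the S1S2 libraries but an adjusted p of 0.179. The count was 1284 in each of the 3 G9Gl libraries, whose totals differ, which is why their CPM do.

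**Figure D3:**
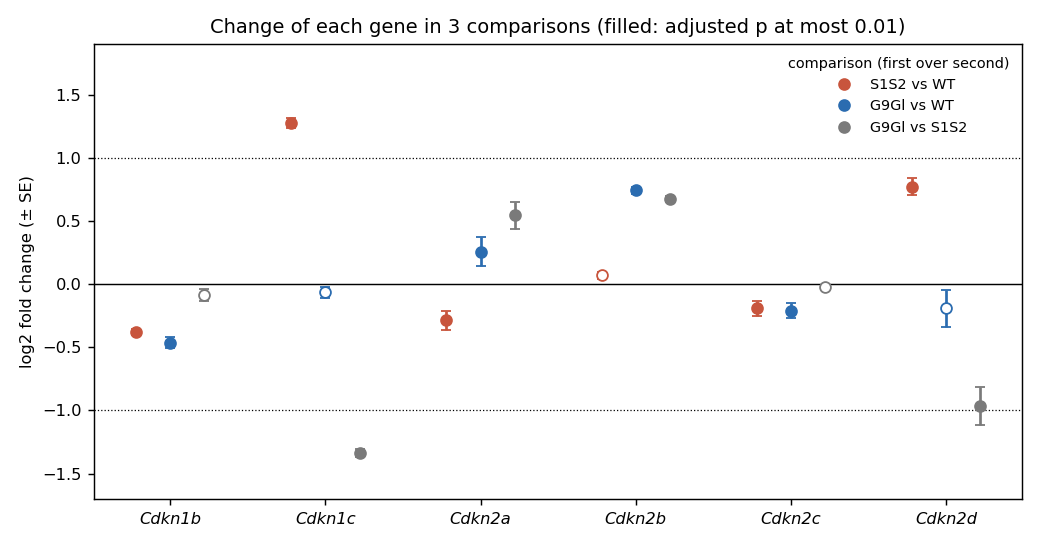
Log2 fold change ± SE of each gene for S1S2 over WT (red), G9Gl over WT (blue) and G9Gl over S1S2 (grey). Filled points have an adjusted p of at most 0.01 and dotted lines mark a fold change of 2; Cdkn1c passes both limits at 1.27 and -1.34, and Cdkn2a lies below 0 in S1S2 and above 0 in G9Gl.

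Cdkn2a changed in opposite directions in the mutants, though by little in each. It was at 326.8, 333.9 and 293.5 CPM in the WT libraries, at 262.2, 246.3 and 273.8 CPM in S1S2, and at 377.1, 426.8 and 336.9 CPM in G9Gl. The 3 genotypes did not overlap, with S1S2 lowest and G9Gl highest, and the G9Gl libraries were the most spread. The gene fell in S1S2 by 0.29 ± 0.073 on the log2 scale (adjusted p = 0.00248) and rose in G9Gl by 0.26 ± 0.114 (adjusted p = 0.00549). The difference between the mutants, a log2 fold change of G9Gl over S1S2 of 0.54 ± 0.108 (adjusted p = 3.82e-06), was larger than either. Both changes against WT depend on single libraries. Leaving out WT replicate 1 or S1S2 replicate 2 took the S1S2 value to an adjusted p of 0.0111 or 0.0181, and leaving out WT replicate 1 or 3 or G9Gl replicate 1 or 2 took the G9Gl value to between 0.0107 and 0.0443, with the lowest log2 fold change, 0.17, without G9Gl replicate 2.

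Cdkn2b, which encodes p15Ink4b, a CDK4 and CDK6 inhibitor known to be induced by TGF-beta, rose in G9Gl. The WT libraries gave 55.9, 59.2 and 57.1 CPM, the S1S2 libraries 58.9, 60.9 and 61.0 CPM, and the G9Gl libraries 94.9, 98.1 and 95.2 CPM. G9Gl stood apart in all 3 libraries, while WT and S1S2 overlapped. The rise was 1.67-fold (log2 fold change 0.74 ± 0.029, adjusted p = 2.49e-10), under the fold limit for a call, and 15.9% of tested genes changed by more. In S1S2 the log2 fold change was 0.07 ± 0.029 (adjusted p = 0.215), and G9Gl exceeded S1S2 by 0.67 ± 0.022 (adjusted p = 8.36e-10).

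Within this locus the balance of the 2 genes was also compared, a ratio that needs no scaling between libraries and that was chosen after the values had been seen. Per 100 Cdkn2a counts there were 18.1 ± 1.23 Cdkn2b counts in WT (17.1 to 19.5), 23.2 ± 1.37 in S1S2 (22.3 to 24.7) and 25.5 ± 2.65 in G9Gl (23.0 to 28.2). The WT libraries lay below all mutant libraries, and the mutants overlapped. With the values above, the S1S2 ratio goes with a lower Cdkn2a level at a similar Cdkn2b level, and the G9Gl ratio with log2 rises of 0.74 for Cdkn2b and 0.26 for Cdkn2a.

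Cdkn2c and Cdkn2d encode the remaining INK4 proteins, which are known mainly from development and differentiation. Cdkn2c, at chr4:109660876-109667189 on the minus strand, gave 58.6, 51.0 and 56.5 CPM in the WT libraries, 48.4, 49.0 and 48.2 CPM in S1S2, and 48.4, 46.9 and 48.3 CPM in G9Gl. All mutant libraries were below all WT libraries, and the mutants overlapped. The gene fell by 0.19 ± 0.060 on the log2 scale in S1S2 (adjusted p = 0.00771) and by 0.21 ± 0.062 in G9Gl (adjusted p = 0.00384). The mutants differed by -0.02 ± 0.016 (adjusted p = 0.793). Both falls depended on single libraries. The S1S2 value did not pass the limit without WT replicate 1 or 3 or without any 1 of the S1S2 libraries, with an adjusted p of up to 0.0525, and the G9Gl value was lost without WT replicate 1 or G9Gl replicate 2 or 3, with an adjusted p of up to 0.0359.

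Cdkn2d had the lowest level of the set in WT and, beside Cdkn1c, was the other gene to rise in S1S2. It lies on chromosome 9 at chr9:21288410-21291407 on the minus strand. It was at 12.2, 11.2 and 11.2 CPM in the WT libraries, at 18.5, 20.9 and 19.3 CPM in S1S2, and at 9.06, 12.1 and 9.04 CPM in G9Gl. The S1S2 libraries lay above all others, and G9Gl replicate 2 reached into the WT range while the other 2 G9Gl libraries were below it. The rise in S1S2 was 1.71-fold (log2 fold change 0.77 ± 0.066, adjusted p = 7.08e-06). In G9Gl the log2 fold change was -0.19 ± 0.146 (adjusted p = 0.152), which rested on single libraries. Without G9Gl replicate 2 it was -0.35 (adjusted p = 0.00742), whereas without G9Gl replicate 1 it was -0.12 (adjusted p = 0.421) and without G9Gl replicate 3 also -0.12 (adjusted p = 0.458). S1S2 exceeded G9Gl 1.95-fold (log2 fold change of G9Gl over S1S2 -0.96 ± 0.150, adjusted p = 4.63e-07), just short of a call. Without S1S2 replicate 1 or without G9Gl replicate 2 it was a call, with a log2 fold change of -1.12 in the latter fit.

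For orientation, Cdkn1a, the remaining CIP/KIP gene and a well-known p53 target, was at 9.14 ± 0.442 CPM in WT, 17.1 ± 2.33 CPM in S1S2 and 17.7 ± 2.49 CPM in G9Gl. Its log2 fold change over WT was 0.90 for S1S2, with an adjusted p of 3.84e-06, and 0.95 for G9Gl, with one of 1.4e-06. Per kb of exon it was below all 6 genes in every genotype, at 2.57 CPM per kb in WT.

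Cdkn1c sits in a cluster of imprinted genes on chromosome 7, at chr7:143458339-143461050 on the minus strand, in which the long non-coding RNA Kcnq1ot1 is expressed from the paternal allele and silences neighbours there, Cdkn1c among them. The counts do not separate alleles. Within 200 kb of Cdkn1c, 22 genes are annotated and 8 were tested. Of these, 3 were called in S1S2 against WT, 1 in G9Gl against WT and 3 between the mutants, beside 9%, 10.2% and 13.1% of all genes. DESeq2 called 2, 1 and 2. Kcnq1ot1 itself was abundant, at 361.4 CPM in WT, and fell in S1S2 by 0.22 on the log2 scale (adjusted p = 0.000114). Its log2 fold change in G9Gl was 0.07 (adjusted p = 0.132).

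Tnfrsf22, a decoy receptor gene 173.8 kb from Cdkn1c, was high in the same 3 libraries. Its counts were 94, 97 and 72 in WT, 343, 381 and 265 in S1S2, and 52, 54 and 56 in G9Gl, a log2 fold change of 2.32 ± 0.166 in S1S2 (adjusted p = 1.6e-10) and of -0.59 ± 0.137 in G9Gl (adjusted p = 0.00723). Phlda2, an imprinted regulator of placental growth, was low throughout, with 24, 17 and 9 counts in WT, 29, 30 and 26 in S1S2, and 14, 20 and 11 in G9Gl. It was called in S1S2 (1.18 ± 0.353 on the log2 scale, adjusted p = 0.00676), but in only 1 of 6 fits that left out a library. Slc22a18, an imprinted transporter gene and at 12.7 kb the nearest tested gene, had a log2 fold change of -1.37 in S1S2 at an adjusted p of 0.0311, which did not pass.

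Kcnq1, a potassium channel gene 31.3 kb away, was called in both mutants. It had 7, 3 and 1 counts in WT, 13, 15 and 11 in S1S2, and 51, 63 and 49 in G9Gl. Summed over libraries, S1S2 was 4.72 times WT (95% exact interval for counting error 2.37 to 10.2) and G9Gl 15.98 times WT (8.70 to 32.6). Without WT replicate 1, which held 7 of these counts, its fitted log2 fold change went from 2.20 to 2.99 in S1S2 and from 3.95 to 4.75 in G9Gl, and both calls held. Kcnq1ot1 lies antisense within Kcnq1, and whether strand was used in counting is not given in the sources used here, so reads of these genes may not be separated. Tspan32, a tetraspanin gene of the same domain beyond the 200 kb window, went the opposite way in the mutants. Its counts were 25, 22 and 28 in WT, 3, 4 and 3 in S1S2, and 92, 87 and 90 in G9Gl, a log2 fold change of -2.46 ± 0.087 and 1.95 ± 0.094. Summed over libraries, WT was 5.63 times S1S2 (95% exact interval for counting error 2.90 to 12.2). Of the 11 genes listed for this domain 10 were tested, and the genes called were Kcnq1 and Phlda2 (higher) and Tspan32 (lower) in S1S2, and Kcnq1 and Tspan32 (higher) in G9Gl, thus 3 and 2 of 10 beside 9% and 10.2% of all genes.

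**Figure D4:**
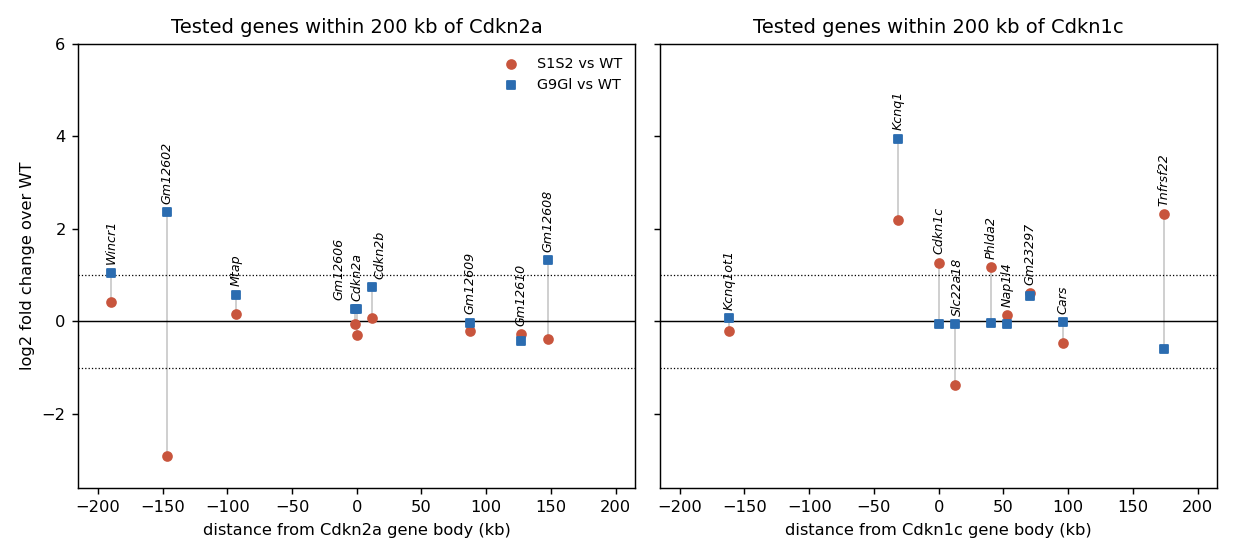
Log2 fold change over WT of the tested genes within 200 kb of Cdkn2a (left) and Cdkn1c (right) by distance from the gene body in kb, for S1S2 (red circles) and G9Gl (blue squares); dotted lines mark a fold change of 2. Gm12602 lies at -2.92 in S1S2 and 2.36 in G9Gl, and Kcnq1 and Tnfrsf22 are the neighbours of Cdkn1c that lie farthest from 0.

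The Cdkn2a and Cdkn2b locus on chromosome 4 spans chr4:89274471-89294653 and chr4:89306299-89311039. Within 200 kb of Cdkn2a, 8 genes were tested, of which 1 was called in S1S2 against WT, 3 in G9Gl against WT and 2 between the mutants, beside 9%, 10.2% and 13.1% of all genes, and DESeq2 gave the same numbers. The non-coding Gm12602, 146.2 kb from Cdkn2a, moved most. It had 26, 22 and 15 counts in WT, 2, 3 and 1 in S1S2, and 97, 88 and 117 in G9Gl. Summed over libraries, WT was 7.89 times S1S2 (95% exact interval for counting error 3.43 to 22.3), and G9Gl was 5.17 times WT (3.93 to 6.89). Its groups stood in the same order as those of Cdkn2a, S1S2 lowest and G9Gl highest.

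Mtap, a methionine salvage gene 93.4 kb from Cdkn2a, lies between Gm12602 and Cdkn2a. It was at 147.9 ± 6.47 CPM in WT, 165.5 ± 9.12 CPM in S1S2 and 220.9 ± 7.43 CPM in G9Gl, and rose in G9Gl (0.58 ± 0.046 on the log2 scale, adjusted p = 2.37e-08). In S1S2 its log2 fold change was 0.16 ± 0.059 (adjusted p = 0.0104). The pseudogene Gm12608 and the non-coding Wincr1 were also called in G9Gl, at log2 fold changes of 1.33 and 1.05, but the first was lost in 2 and the second in 4 of 6 fits that left out a library. Gm12606, the non-coding gene 1.07 kb from Cdkn2a, had a log2 fold change of -0.06 in S1S2 and 0.28 in G9Gl, neither past the limit. Over the 943 tested genes of chromosome 4, the median log2 fold change was 0.01 in both mutants.

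Around Cdkn1b on chromosome 6, Cdkn2c on chromosome 4 and Cdkn2d on chromosome 9, none of the 24 neighbours tested within 200 kb was called by edgeR in any comparison, beside 9%, 10.2% and 13.1% of all genes. An unadjusted p under 0.05 was reached by 10, 12 and 9 of them in S1S2, in G9Gl and between the mutants. At least 48.9%, 45.9% and 53.3% of all genes reached it, the shares at an adjusted p of 0.05. DESeq2 called 1, 0 and 1 of the 24. Lockd, the non-coding gene 3.58 kb downstream of Cdkn1b, had log2 fold changes of 0.03 and -0.27, and Kri1, 0.441 kb from Cdkn2d, of 0.12 and 0.04, none past the limit. Other neighbours of Cdkn1b, which itself fell in both mutants, rose by adjusted p. Gprc5a, 140.1 kb away, rose by 0.79 in S1S2 and 0.70 in G9Gl on the log2 scale, and Dusp16, 127.8 kb away, by 0.43 and 0.32. Gpr19, 21.8 kb away, rose by 0.74 in G9Gl (adjusted p = 8.56e-05), had a log2 fold change of -0.26 in S1S2 (adjusted p = 0.139), and was higher in G9Gl than in S1S2 by 1.00 on the log2 scale, just short of the fold limit of 2. The non-coding 9630013D21Rik, 3.02 kb from Cdkn2c, also fell, by 1.00 on the log2 scale in S1S2 (adjusted p = 0.000142), just short of a fold of 2 before rounding and so not a call, and by 0.68 in G9Gl (adjusted p = 0.00224). At Cdkn2d, the median of the chromosome was -0.07 in S1S2, against the rise of the gene by 0.77.

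Of the known partners and targets of the inhibitors, in 43 genes of 6 lists (D cyclins and their kinases, later cyclins and their kinases, kinase activation, RB and E2F, p27 turnover, and ARF with MDM2 and p53), 1 was called in S1S2 against WT, none in G9Gl against WT and 1 between the mutants, beside 9%, 10.2% and 13.1% of all genes, and DESeq2 gave the same counts. By adjusted p, 6 of the 43 rose and 13 fell in S1S2, beside 20.3% and 17.6% of all genes. In G9Gl 5 rose and 10 fell, beside 19% and 16% of all genes. There 21 of the 43 had an unadjusted p under 0.05, as did at least 45.9% of all genes, the share at an adjusted p of 0.05. The called gene was Ccnd1, which encodes cyclin D1, the CDK4 and CDK6 partner that INK4 proteins displace. Ccnd1 was at 129.1 ± 20.0 CPM in WT, 383.3 ± 7.38 CPM in S1S2 and 114.7 ± 10.9 CPM in G9Gl, a log2 fold change of 1.57 ± 0.135 in S1S2 (adjusted p = 9.01e-11). For G9Gl it was -0.17 ± 0.157 (adjusted p = 0.11).

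Cdk4, which encodes the kinase itself, fell in S1S2 by 0.29 on the log2 scale, Cdk6 rose by 0.29 and Cdk2 fell by 0.30. In G9Gl none of the 5 D cyclin and kinase genes passed the limit. The counts by adjusted p in each list stand beside the shares of all genes given above, 20.3% higher and 17.6% lower in S1S2 and 19% and 16% in G9Gl, and in lists of 4 to 13 genes 1 gene is a large share. Of the 7 later cyclins and kinases, 1 rose and 2 fell in S1S2, and 1 rose and 3 fell in G9Gl. Ccne1, encoding cyclin E1, rose by 0.50 in S1S2 and 0.21 in G9Gl, while Ccne2 fell by 0.27 and 0.49. Of 8 genes of kinase activation, 1 rose and 4 fell in S1S2, and 1 rose and 1 fell in G9Gl. Among them the phosphatase gene Cdc25b rose by 0.37 and Cdk7, of the CDK-activating kinase, fell by 0.29 in S1S2. In the RB and E2F list, which holds the pocket protein substrates of these kinases and the E2F factors they restrain, 1 rose and 3 fell of 13 in S1S2, and 2 rose and 3 fell in G9Gl, with Rb1 at a log2 fold change of 0.44 and E2f2 at -0.63 in G9Gl. Of 6 genes of p27 turnover, 1 fell in S1S2 and 2 in G9Gl. Skp2, the receptor of the ubiquitin ligase for p27, fell by 0.32 in S1S2 and 0.19 in G9Gl. In the ARF list of 4, 1 rose and 2 fell in S1S2, and 1 rose and 1 fell in G9Gl. Mdm2 rose by 0.42 and 0.46 and Mdm4 fell by 0.37 and 0.60 on the log2 scale in S1S2 and G9Gl, and Trp53 stood at log2 fold changes of 0.06 and -0.03, not past the limit.

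**Figure D5:**
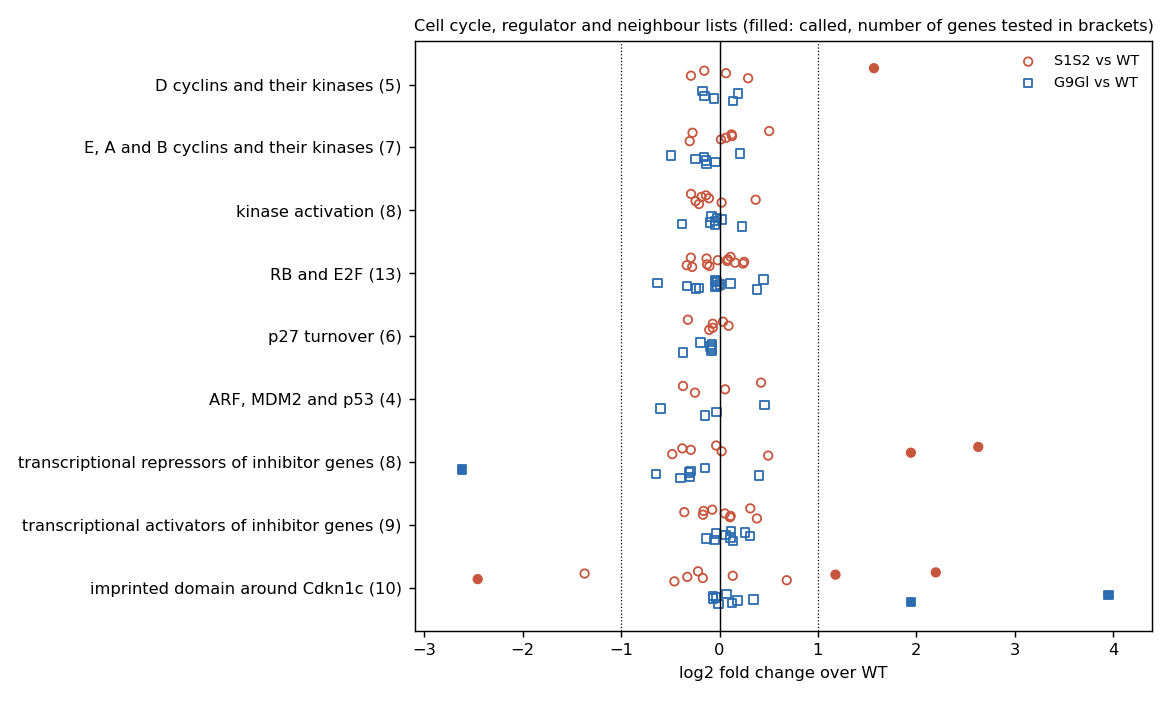
Log2 fold change over WT of the tested genes of 9 lists, 1 symbol a gene, for S1S2 (red circles) and G9Gl (blue squares). Filled symbols were called and dotted lines mark a fold change of 2; the called genes are Ccnd1 at 1.57, Cbx7 at 2.63 and -2.62, Tbx2 at 1.94, and Kcnq1, Phlda2 and Tspan32 of the imprinted domain.

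Genes known as transcriptional repressors of the inhibitors held 2 called genes of 8 in S1S2 and 1 in G9Gl, beside 9% and 10.2% of all genes. By adjusted p, 3 rose and 3 fell in S1S2, beside 20.3% and 17.6% of all genes, and 4 fell in G9Gl, beside 16%. Cbx7, a Polycomb subunit known to repress Cdkn2a, had 20, 15 and 7 counts in WT, 68, 71 and 57 in S1S2, and 4, 2 and 0 in G9Gl. All S1S2 libraries lay above the WT libraries, and all G9Gl libraries below them. Its log2 fold change was 2.63 ± 0.375 in S1S2 (adjusted p = 2.54e-06), and summed over libraries WT was 6.49 times G9Gl (95% exact interval for counting error 2.75 to 18.7), a call that was lost without WT replicate 1 or G9Gl replicate 3. The fitted log2 fold change in G9Gl, -2.62 with all libraries, was -3.54 without G9Gl replicate 1 and -2.02 without G9Gl replicate 3. Tbx2, which encodes a T-box repressor of the same locus, had 13, 14 and 12 counts in WT, 44, 37 and 32 in S1S2, and 16, 13 and 19 in G9Gl, a log2 fold change of 1.94 ± 0.181 in S1S2 (adjusted p = 1.77e-05). For G9Gl it was 0.40 ± 0.126 (adjusted p = 0.328). Tbx3, its relative, fell by 0.48 in S1S2 (adjusted p = 5.06e-05) and by 0.30 in G9Gl (adjusted p = 0.0027) on the log2 scale, and Cbx8, another Polycomb subunit gene, fell by 0.38 in S1S2. Ezh2, the Polycomb methyltransferase, fell by 0.29 and 0.31 on the log2 scale in S1S2 and G9Gl. Twist1, a repressor in mesenchymal cells, fell by 0.65 in G9Gl and had a log2 fold change of 0.02 in S1S2, where it did not pass the limit. Of 9 activators none was called by edgeR or DESeq2 in any comparison, beside 9%, 10.2% and 13.1% of all genes by edgeR. An unadjusted p under 0.05 was reached by 5, 5 and 8 of them. At least 48.9%, 45.9% and 53.3% of all genes reached it, the shares at an adjusted p of 0.05. By adjusted p, 2 of the activators rose and 3 fell in S1S2, beside the same 20.3% and 17.6% of all genes, and 2 rose in G9Gl, beside 19%. Among them Smad3, a TGF-beta effector, rose by 0.38 in S1S2, and Ets2, an activator of Cdkn2a, rose by 0.26 in G9Gl. Whether any of these genes acts on the inhibitors in these cells was not tested.

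Among 12863 genes with a mean of at least 1 CPM, those most like Cdkn1c over the 9 libraries, by the root mean square difference of log2 CPM centred on WT, were Mum1l1 (0.083), Ssh3 (0.106) and Mtmr10 (0.116). Their log2 fold changes in S1S2 were 1.27, 1.12 and 1.22, and in G9Gl -0.12, 0.00 and 0.05. They lie on chromosomes X, 19 and 7.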

How the data were processed

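Raw counts of reads for each Ensembl gene were deposited. By the study's methods, total RNA reads were aligned to GRCm38 with STAR 2.5.2b under TEtranscripts settings, and genes and repeats were counted with TEtranscripts. The methods also name count matrices from snakePipes for expression set beside ChIP-seq. Every deposited row names a gene, and which counting tool made these counts was not checked. The annotation release and the strand setting are not given in the sources used here, and reads of near-identical or overlapping genes may be shared. Of 47937 genes, 47224 matched GENCODE M21, and 713 did not.

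From these counts, 15540 genes passed filterByExpr of edgeR 4.0.16 (R 4.3.3). After TMM scaling they were tested by quasi-likelihood (glmQLFTest) in 1 fit of 9 libraries with a coefficient per genotype and no block. All adjusted p-values are from this test unless DESeq2 is named. Standard errors (SE) use the variance of log2 CPM within genotypes with a prior count of 2. The common biological coefficient of variation was 5.36%. Levels between genes were divided by exon length. Intervals and the floor of 3 counts cover counting error only. No library was a duplicate, with chi-square per degree of freedom of at least 2.57 between replicates.

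The genes named were the 6 inhibitors, Cdkn1a, the targeted genes, called genes and up to 3 others of each list, neighbours within 200 kb that were called or adjacent, and the 3 genes most like a called member. Further neighbours and list members named beside these, and the ratio of Cdkn2b to Cdkn2a, were chosen after the values were seen. The members and lists were chosen with earlier results of these data known. Alternatives were DESeq2 1.42.0, its size factors in edgeR, no composition factor, no filter, at least 10 counts in every library, an adjusted p up to 0.05 with no fold limit, glmTreat, only the libraries compared, the replicate number as a block, the chromosome median subtracted, and each library left out. The fitting code was tested on simulated data.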

Additional observations from a re-analysis of the deposited data

Results flagged for a closer look

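The response of 4 of the 6 genes differed between the mutants in the direct test of G9Gl against S1S2 (edgeR, adjusted p of at most 0.01), which is the difference of the 2 effects against WT. The log2 fold change of G9Gl over S1S2 was -1.34 for Cdkn1c (adjusted p = 2.03e-12) and -0.96 for Cdkn2d (adjusted p = 4.63e-07), both higher in all 3 S1S2 libraries. It was 0.54 for Cdkn2a (adjusted p = 3.82e-06) and 0.67 for Cdkn2b (adjusted p = 8.36e-10), both higher in all 3 G9Gl libraries. Of all tested genes, 42.6% passed the same limit. No group was large enough for a search for single outlying libraries.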

How the results depend on the processing

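Of 288 alternative values of the 18 member comparisons, none turned direction. None lost a call, though only Cdkn1c had calls to lose. As kept counted 274 values, by direction and side of the threshold. With the chromosome median subtracted, kept meant only a shift smaller than the spread between libraries, and 17 of these values were counted so. Among them was Cdkn2d between the mutants, at -0.96, where subtracting the chromosome median of 0.10 takes the value past a fold of 2. With a limit of 0.05 on adjusted p and none on the fold, 5 members passed in S1S2 against WT (Cdkn1b at -0.38, Cdkn2a at -0.29, Cdkn2c at -0.19 and Cdkn2d at 0.77 beside Cdkn1c), 4 in G9Gl against WT (Cdkn1b at -0.46, Cdkn2a at 0.26, Cdkn2b at 0.74 and Cdkn2c at -0.21) and 4 in G9Gl against S1S2 (Cdkn2a at 0.54, Cdkn2b at 0.67 and Cdkn2d at -0.96 beside Cdkn1c), and so did 24, 20 and 26 of the 43 cell cycle genes, since that rule drops the fold limit. Under it 48.9%, 45.9% and 53.3% of all genes passed. With the chromosome median subtracted, Cdkn1b was at -0.42 in S1S2. With a library left out, the count of members called between the mutants ranged from 1 to 2. The log2 fold change of Cdkn2d ranged from -1.12 to -0.88 over these 6 fits, and it was called only without S1S2 replicate 1 or G9Gl replicate 2. The counts were 1 to 1 in S1S2 and 0 to 0 in G9Gl.

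Same-numbered libraries correlated from -0.07 to 0.12 in their deviations, so the numbers were not taken as pairs. With the replicate block the counts of members called were 1, 0 and 1, and those of cell cycle genes 1, 0 and 1, as without it, and the block changed the call of no member. Over all genes it moved the calls from 1398 to 1383, from 1580 to 1568 and from 2028 to 2022. On the limit on adjusted p alone, Cdkn2a and Cdkn2c against WT depended on single libraries as given above. In a fit of only the libraries compared, Cdkn2c in S1S2 had an adjusted p of 0.0122 and Cdkn2a in G9Gl one of 0.0117. Over all genes, a minimum of 10 counts in every library cut the calls in S1S2 from 1398 to 728, in G9Gl from 1580 to 682 and between the mutants from 2028 to 962. It drops every gene with fewer than 10 counts in any library. The glmTreat test gave 735, 1045 and 1341. Depth limits neighbours with few counts, such as Phlda2, Kcnq1 and Gm12602, more than the members.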
